A study of Mus musculus with 9 samples.

Results

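The 47 genes described here are type I interferon-stimulated genes, taken as the rows of the deposited expression table whose Ensembl identifiers carry the listed symbols in GENCODE M21. All 47 were found, 1 row each, among the 28137 genes of the table. Expression was measured by mRNA sequencing in RAW264.7 cells, a mouse monocyte-macrophage leukaemia line, in 9 libraries that fall into 3 groups of 3. The groups received NC-siRNA (a negative control small interfering RNA), SFRP2-siRNA or RAB6A-siRNA, and are called NC siRNA, SFRP2 siRNA and RAB6A siRNA below. In every group the labels give 60 nM siRNA with 6 h of transfection and 12 h in complete medium, followed by lipopolysaccharide (LPS) at 100 ng/ml for 24 h, so the controls carry LPS as well and no unstimulated library was compared. The sample titles also end in 6H, without saying whether this is the transfection time. The study's methods describe another siRNA dose, transfection reagent and culture medium, and add interferon-γ to the LPS; which applies to these libraries cannot be told from the labels. The cells are a single line. The study's supplement lists numbered siRNAs beside an NC siRNA without saying which library received which, and the labels do not say whether the 3 SFRP2 siRNA libraries came from different siRNAs or whether replicates were separate cultures, so the p-values measure only the spread between these libraries, which may be technical.

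Type I interferons, the interferon-α and interferon-β proteins, bind the receptor made of Ifnar1 and Ifnar2 and act through the kinases Jak1 and Tyk2 on a transcription factor complex. That complex binds the interferon-stimulated response element (ISRE) in promoters, and the genes it switches on encode proteins that block viral RNA, translation, entry and budding. Macrophages given LPS are a known source of interferon-β, through Tlr4 and its adaptors Ticam1 and Ticam2, and respond to it themselves.

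The ISRE core was read as TTTC, any 2 bases and TTTC, or on the other strand GAAA, any 2 bases and GAAA, in RefSeq promoters of GRCm38.p6, each spanning 250 bases before to 50 after a gene's start. An entry was matched for 37 of the 47 genes, and Oas2, Usp18, Parp9, Parp14, Mx1, Mx2, Rtp4, Ifi204, Ifi27l2a and Tor3a had none. The core was present in 17 of the 37 (45.9%) and in 1079 of all 27025 genes with a RefSeq promoter entry (3.99%). That background was not restricted to genes of the expression table. The 200 bases before the start are printed for 8 members so that genes with a core can be set beside their changes. Ifit1 and Ifit3b had the lowest changes with RAB6A siRNA, Isg15 is the ubiquitin-like modifier of the response, Oas1a and Oas1g are closely related neighbours, Rsad2 did not pass the test, and Bst2 and Phf11b rose. Capitals mark the core on either strand, and in Isg15, Oas1a, Oas1g and Bst2 the capitals hold overlapping matches. Ifit1 lies at chr19:34640689-34640888 on the plus strand and Ifit3b at chr19:34607757-34607956 on the plus strand. The minus-strand windows are chr4:156200819-156201018 for Isg15, chr5:120907526-120907725 for Oas1a, chr5:120887614-120887813 for Oas1g, chr12:26456453-26456652 for Rsad2, chr8:71537473-71537672 for Bst2 and chr14:59341331-59341530 for Phf11b, each printed 5′ to 3′ along its gene.
Ifit1: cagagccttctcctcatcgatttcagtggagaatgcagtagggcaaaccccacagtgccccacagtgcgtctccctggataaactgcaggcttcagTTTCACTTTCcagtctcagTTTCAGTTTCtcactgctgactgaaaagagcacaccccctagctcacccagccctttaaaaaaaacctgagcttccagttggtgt
Ifit3b: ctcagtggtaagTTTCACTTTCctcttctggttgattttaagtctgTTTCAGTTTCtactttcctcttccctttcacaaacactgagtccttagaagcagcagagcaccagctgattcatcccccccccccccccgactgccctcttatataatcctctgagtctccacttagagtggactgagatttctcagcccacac
Isg15: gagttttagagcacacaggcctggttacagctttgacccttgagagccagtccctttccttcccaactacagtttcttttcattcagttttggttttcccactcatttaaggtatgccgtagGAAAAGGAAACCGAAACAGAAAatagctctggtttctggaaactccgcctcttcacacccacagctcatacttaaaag
Oas1a: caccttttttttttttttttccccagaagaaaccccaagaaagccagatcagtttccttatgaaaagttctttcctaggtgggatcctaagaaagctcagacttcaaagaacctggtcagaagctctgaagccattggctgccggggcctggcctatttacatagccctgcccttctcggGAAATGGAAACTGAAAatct
Oas1g: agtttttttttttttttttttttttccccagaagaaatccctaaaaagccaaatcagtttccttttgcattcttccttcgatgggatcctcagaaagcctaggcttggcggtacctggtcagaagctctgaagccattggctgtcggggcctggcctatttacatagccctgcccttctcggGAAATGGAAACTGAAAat
Rsad2: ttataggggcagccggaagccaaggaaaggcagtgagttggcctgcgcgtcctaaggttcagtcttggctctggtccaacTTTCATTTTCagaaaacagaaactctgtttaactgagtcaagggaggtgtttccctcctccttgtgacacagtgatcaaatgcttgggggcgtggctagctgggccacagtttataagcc
Bst2: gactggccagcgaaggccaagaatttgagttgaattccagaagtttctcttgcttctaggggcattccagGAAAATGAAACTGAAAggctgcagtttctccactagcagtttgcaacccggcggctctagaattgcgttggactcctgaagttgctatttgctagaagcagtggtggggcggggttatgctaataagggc
Phf11b: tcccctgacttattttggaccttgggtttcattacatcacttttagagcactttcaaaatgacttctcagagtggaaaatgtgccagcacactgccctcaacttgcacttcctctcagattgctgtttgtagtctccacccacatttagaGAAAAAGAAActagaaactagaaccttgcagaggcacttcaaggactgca
Read by the outcome of RAB6A siRNA against NC siRNA described below, the core was present in 10 of 20 members that fell (50%), 5 of 10 that rose (50%) and 2 of 7 that did not pass (28.6%). Ifi205, counted among the 5, met the expression filter described below only through the RAB6A siRNA libraries. The first match lay 104 bases before the start in Ifit1, 188 in Ifit3b, 78 in Isg15, 20 in Oas1a, 18 in Oas1g, 120 in Rsad2, 130 in Bst2 and 50 in Phf11b. A match describes letters in this window and is not a measured binding site.

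Values are FPKM, fragments scaled for exon length in kilobases and for library depth, as deposited. Differences are log2 fold changes of FPKM + 0.1 with their standard error (SE) from limma, fitted over all genes with a mean of at least 0.5 FPKM in the 6 libraries compared, and p-values are adjusted by Benjamini-Hochberg over all genes tested. A gene passed the test, and is said to have risen or fallen, at an adjusted p under 0.05. The FPKM steps implied totals of 32758730 to 47149257 reads per library, and the RAB6A siRNA libraries were among the shallower ones, at 32758730 to 37833882. Rab6a itself, the targeted small GTPase of Golgi transport, measured 24.3 to 27.3 FPKM in NC siRNA, 25.8 to 28.6 in SFRP2 siRNA and 20.4 to 21.2 in RAB6A siRNA, a log2 fold change of -0.31 (SE 0.06, adjusted p = 0.0024) for RAB6A siRNA against NC siRNA. That value lies between the quartiles of all genes tested in this comparison (-0.58 and 0.70), of which 36.5% fell. Sfrp2, the secreted Wnt modulator targeted in the SFRP2 siRNA group, lay at 2 to 4 reads in every library, and its level therefore checks neither the label nor the knockdown. Of 10 macrophage markers, Mertk lay near 0 in each group and 9 were detected at a mean of at least 0.5 FPKM. Their summed FPKM was 4582 to 5050 in NC siRNA, 4054 to 4383 in SFRP2 siRNA and 3979 to 4142 in RAB6A siRNA, and with RAB6A siRNA Lyz2 (-2.03), Csf1r (-1.44), Spi1 (-1.05) and Fcgr1 (-0.75) fell while Ptprc (0.17) rose. The 6 markers of other lineages in the table summed to 1.32 to 2.83 FPKM. Among them Pecam1, an endothelial and leukocyte adhesion molecule, rose with RAB6A siRNA (0.69, adjusted p = 0.012) at means under 1 FPKM. Pecam1 met the filter only through the RAB6A siRNA libraries (means of 0.475 FPKM in NC siRNA and 0.830 in RAB6A siRNA). The filter itself therefore favoured this direction. The part of these marker shifts in the changes below was not tested, and in bulk libraries fewer cells of a type and less RNA per cell cannot be told apart.

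In NC siRNA cells the interferon-stimulated genes were abundant and spread over a wide range. Ifitm3, a membrane protein that blocks virus entry, was the highest at 876 ± 75.9 FPKM (SD, n = 3), and Ifi205, a PYHIN-family nuclear protein, was the lowest at 0.426 ± 0.0899. The median member measured 38.7 FPKM in NC siRNA, 36.6 in SFRP2 siRNA and 33.4 in RAB6A siRNA, and 40, 40 and 36 of the 47 lay at 10 FPKM or more. Replicates agreed closely, since the median SD between replicates on the log2 scale was 0.070 for the members in NC siRNA, 0.086 in SFRP2 siRNA and 0.089 in RAB6A siRNA, against 0.098, 0.109 and 0.124 over 12549 genes with a mean of at least 0.5 FPKM in all 9 libraries. The mean log2 level over the members was 5.15 to 5.18 in the NC siRNA libraries, 5.00 to 5.13 in SFRP2 siRNA and 4.72 to 4.80 in RAB6A siRNA. Their summed FPKM did not separate RAB6A siRNA (3411 to 3811) from NC siRNA (3732 to 3891), whereas SFRP2 siRNA (3483 to 3523) lay below NC siRNA. As a share of all FPKM in the library the members made up 1.00% to 1.05% in NC siRNA, 0.932% to 0.971% in SFRP2 siRNA and 0.853% to 0.928% in RAB6A siRNA, and on that scale neither siRNA group overlapped NC siRNA. That share also depends on the total FPKM, which differed between libraries. RAB6A siRNA replicate 1 had a higher sum than NC siRNA replicate 1 (3795 against 3743) but a lower share (0.924% against 1.03%).

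**Figure D1:**
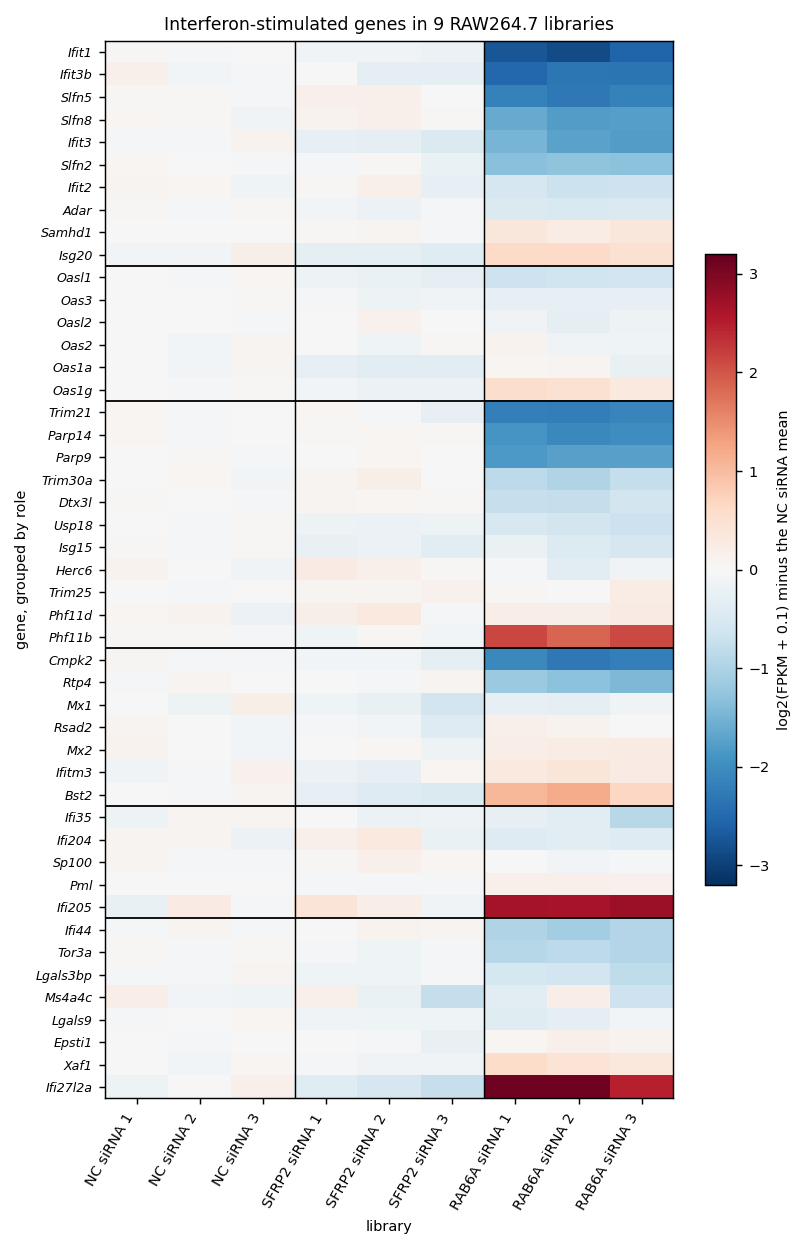
Heat map of log2(FPKM + 0.1) minus the NC siRNA mean for the 47 genes (rows, grouped by role and ordered within a role by their change with RAB6A siRNA) in the 9 libraries (columns). Blue rows, led by Ifit1, and a few red rows, led by Ifi27l2a, stand in the 3 RAB6A siRNA columns, while the SFRP2 siRNA columns stay pale.

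RAB6A siRNA against NC siRNA asked how cells given siRNA to this GTPase differed from controls under the same LPS. The interferon-stimulated genes moved in opposite directions: 12 rose, 26 fell and 9 did not pass the test. Ifi205, counted among the 12, met the filter only through the RAB6A siRNA libraries. Over all 12712 genes tested, 74.1% were called, 37.6% higher and 36.5% lower. The members' median log2 fold change was -0.27, with quartiles at -0.95 and 0.14, beside 0.03 over all genes tested. With an absolute log2 fold change over 1 as well, the threshold of the study, 3 members rose (Ifi27l2a, Ifi205 and Phf11b) and 12 fell (Ifit1, Ifit3, Ifit3b, Slfn2, Slfn5, Slfn8, Trim21, Parp9, Parp14, Cmpk2, Rtp4 and Ifi44), beside 17.3% and 12.8% of all genes tested. The 3 RAB6A siRNA libraries lay wholly above the 3 NC siRNA libraries for 13 members and wholly below for 26, beside 39.2% and 38.2% of all genes tested. With 3 libraries against 3, an exact two-sided permutation test of a single gene cannot go below p = 0.1, so the calls rest on limma's fit across genes.

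**Figure D2:**
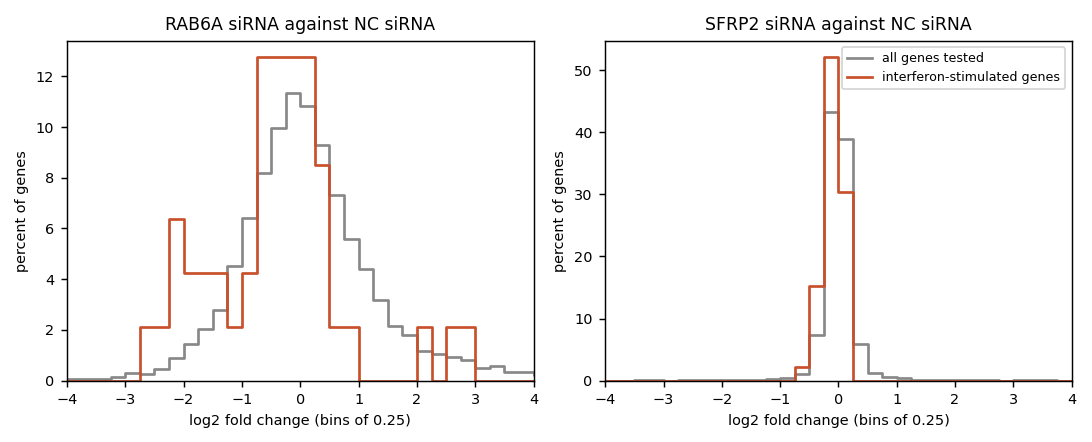
Percent of genes (vertical axis) in bins of 0.25 of the log2 fold change (horizontal axis) for the interferon-stimulated genes and for all genes tested, with RAB6A siRNA on the left and SFRP2 siRNA on the right, each against NC siRNA. On the left the members have a shoulder between -2.75 and -1.25 and 3 members above 2, and on the right both curves are narrow and lie around 0.

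Inhibitors of translation and viral RNA fell most as a role. Of the 10 members, 8 fell, 2 rose and none was left uncalled, beside 36.5% lower and 37.6% higher of all genes tested. Their median log2 fold change was -1.49. Ifit1, which binds viral RNA lacking a host cap, measured 40.0, 38.0 and 38.2 FPKM in NC siRNA, 35.9, 35.8 and 34.2 in SFRP2 siRNA, and 5.68, 5.20 and 6.45 in RAB6A siRNA. The RAB6A siRNA libraries stood far below all 6 others, 6.71-fold lower than NC siRNA, with a log2 fold change of -2.73 (SE 0.08, adjusted p = 9.9e-07). Its relative Ifit3b measured 9.49, 7.88 and 8.01 FPKM in NC siRNA, 8.37, 6.92 and 6.79 in SFRP2 siRNA, and 1.40, 1.61 and 1.59 in RAB6A siRNA. Again the 3 RAB6A siRNA libraries were apart from the rest, and Ifit3b fell by 2.39 on the log2 scale (SE 0.10, adjusted p = 1.9e-06). Ifit3 fell by 1.66 and Ifit2 by 0.63. Ifit3 and Ifit3b share 31.7% of the 100-base windows of Ifit3, so the split of reads between them is uncertain.

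The 3 Schlafen members, which restrict translation and cell growth, fell. Slfn2, the most abundant member of this role, measured 400, 384 and 366 FPKM in NC siRNA, 374, 394 and 332 in SFRP2 siRNA, and 152, 156 and 153 in RAB6A siRNA, a fall of 1.32 on the log2 scale (SE 0.06, adjusted p = 2.2e-06). Slfn5 measured 38.7, 38.4 and 35.8 FPKM in NC siRNA, 42.0, 42.2 and 37.8 in SFRP2 siRNA, and 8.36, 7.64 and 8.26 in RAB6A siRNA. NC siRNA and SFRP2 siRNA overlapped for both genes and RAB6A siRNA did not reach either group. Slfn5 fell by 2.20 (SE 0.06, adjusted p = 7.3e-07) and Slfn8 by 1.72. Adar, the RNA adenosine deaminase, fell by 0.47. The 2 members that rose were Isg20, an RNA exonuclease, and Samhd1, which degrades the nucleotides needed for reverse transcription. Isg20 measured 33.5, 33.3 and 40.1 FPKM in NC siRNA, 28.6, 28.6 and 27.1 in SFRP2 siRNA, and 54.7, 54.4 and 50.2 in RAB6A siRNA, a log2 fold change of 0.58 (SE 0.08, adjusted p = 5e-04). The 3 groups of Isg20 did not overlap. Samhd1 rose by 0.32 (SE 0.06, adjusted p = 0.0016).

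**Figure D3:**
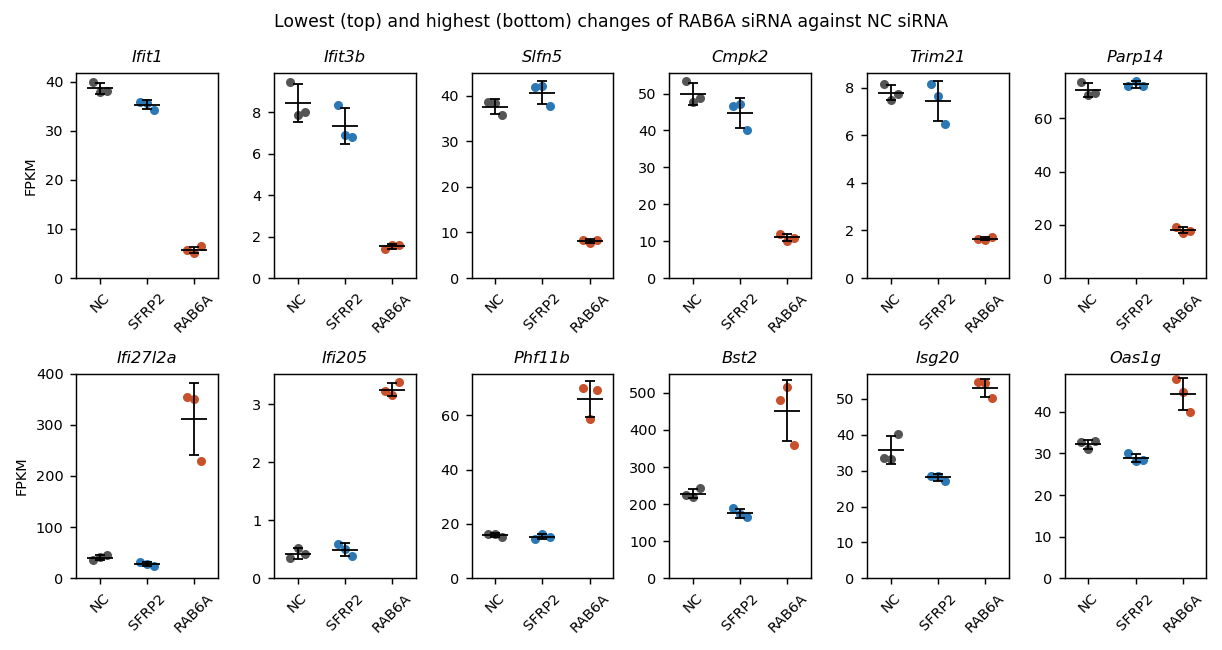
FPKM in each library (points) with the group mean and SD (black, n = 3) for the 6 members with the lowest (top) and the 6 with the highest (bottom) log2 fold change of RAB6A siRNA against NC siRNA. RAB6A siRNA lies apart from both other groups in all 12 panels, and its points scatter most in Ifi27l2a and Bst2. The panels were chosen by this change, so their separation from NC siRNA is no separate result. Of all genes tested, RAB6A siRNA lay wholly above NC siRNA for 39.2% and wholly below for 38.2%.

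The OAS family, enzymes that make 2′-5′-linked oligoadenylate to activate RNase L and their OAS-like relatives, had changes of at most 0.65 in size on the log2 scale. Of the 6 members, 3 fell, 1 rose and 2 did not pass, beside 36.5% lower and 37.6% higher of all genes tested. Their median log2 fold change was -0.12. Oasl1, an OAS-like inhibitor of Irf7 translation and the most abundant member, measured 190, 187 and 200.2 FPKM in NC siRNA, 172, 167 and 154 in SFRP2 siRNA, and 121, 123 and 125 in RAB6A siRNA. The groups were ordered without overlap, and Oasl1 fell by 0.65 against NC siRNA (SE 0.05, adjusted p = 2.7e-05). Oas3 fell by 0.26 (adjusted p = 0.0017); with quantile normalization its value was -0.10 (adjusted p = 0.073). Oas1g measured 32.8, 31.0 and 32.9 FPKM in NC siRNA, 30.1, 28.2 and 28.4 in SFRP2 siRNA, and 47.9, 44.8 and 40.1 in RAB6A siRNA. RAB6A siRNA was above both groups, and Oas1g rose by 0.45 (SE 0.07, adjusted p = 0.00094). Oas1a, at 65.1, 61.6 and 68.8 FPKM in NC siRNA and 67.8, 69.3 and 54.9 in RAB6A siRNA, overlapped and did not pass (log2 fold change -0.03, SE 0.10, adjusted p = 0.78). Oas1a shares 40.9% of its 100-base windows with Oas1g, so their separation is uncertain. Oas2 gave -0.05 (adjusted p = 0.64), and 0.27 (adjusted p = 0.027) after correction for GC content and exon length.

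Of the 11 members of the Isg15 system and the ubiquitin or ADP-ribose ligases, 7 fell, 2 rose and 2 did not pass. Over all genes tested 36.5% fell and 37.6% rose. The median log2 fold change of the 11 was -0.59. Isg15, the ubiquitin-like modifier, measured 216, 200.4 and 216 FPKM in NC siRNA, 180, 185 and 165 in SFRP2 siRNA, and 181, 157 and 145 in RAB6A siRNA. RAB6A siRNA lay below NC siRNA and overlapped SFRP2 siRNA, and Isg15 fell by 0.39 against NC siRNA (SE 0.09, adjusted p = 0.0049). Usp18, the protease that removes Isg15 and dampens receptor signalling, fell by 0.59, and Herc6, the mouse Isg15 ligase, did not pass (-0.16, adjusted p = 0.18). Trim21, an antibody receptor and ubiquitin ligase in the cytosol, measured 8.15, 7.50 and 7.75 FPKM in NC siRNA, 8.16, 7.65 and 6.50 in SFRP2 siRNA, and 1.64, 1.59 and 1.73 in RAB6A siRNA. No RAB6A siRNA library came near the others, and Trim21 fell by 2.17 (SE 0.08, adjusted p = 1.1e-06). Trim30a, a brake on Toll-like receptor signalling, fell by 0.85 (SE 0.07, adjusted p = 2.4e-05), whereas Trim25, the ligase that modifies the RNA sensor RIG-I, did not pass (0.09, adjusted p = 0.27), or gave 0.39 (adjusted p = 0.00068) after correction for GC content and exon length.

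The ADP-ribosyltransferase Parp14 measured 73.7, 68.7 and 69.4 FPKM in NC siRNA, 72.1, 74.1 and 72.0 in SFRP2 siRNA, and 19.1, 16.9 and 17.6 in RAB6A siRNA. It was 3.95-fold lower with RAB6A siRNA than with NC siRNA, falling by 1.98 on the log2 scale (SE 0.06, adjusted p = 1.1e-06). Parp9 fell by 1.76 and Dtx3l, the ubiquitin ligase that pairs with Parp9, by 0.70. Phf11b, a PHD finger protein, went the other way, at 16.2, 16.4 and 15.2 FPKM in NC siRNA, 14.6, 16.4 and 15.1 in SFRP2 siRNA, and 70.0, 58.5 and 69.4 in RAB6A siRNA. All 3 RAB6A siRNA libraries exceeded the rest, and Phf11b was 4.14-fold higher than in NC siRNA (log2 fold change 2.04, SE 0.08, adjusted p = 1.6e-06). Of the 100-base windows of Phf11b, 13.8% occur in other genes.

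Members that act against viruses at membranes, with the Mx GTPases, split between both directions, as all genes tested did (37.6% higher, 36.5% lower). Of the 7, 3 rose, 2 fell and 2 did not pass, with a median log2 fold change of 0.09. Cmpk2, a mitochondrial nucleotide kinase, measured 53.3, 47.7 and 48.8 FPKM in NC siRNA, 46.7, 47.3 and 40.0 in SFRP2 siRNA, and 11.9, 10.2 and 10.9 in RAB6A siRNA. It fell by 2.17 (SE 0.08, adjusted p = 1.2e-06), with RAB6A siRNA below every other library. Rtp4, a chaperone of receptors, fell by 1.31. Bst2, or tetherin, which holds budding virus at the cell surface, measured 224, 218 and 243 FPKM in NC siRNA, 189, 172 and 165 in SFRP2 siRNA, and 480, 516 and 360 in RAB6A siRNA. Bst2 was highest in RAB6A siRNA and lowest in SFRP2 siRNA without overlap, and rose by 0.97 against NC siRNA (SE 0.13, adjusted p = 0.00035), or by 0.38 after correction for GC content and exon length. Ifitm3 measured 812, 857 and 960 FPKM in NC siRNA, 770, 728 and 913 in SFRP2 siRNA, and 1078, 1144 and 1042 in RAB6A siRNA. Its rise of 0.31 (SE 0.09, adjusted p = 0.012) flipped to -0.10 with quantile normalization and to -0.21 after correction for GC content and exon length, so its direction depends on the scaling. Mx1, at means of 1.93 FPKM in RAB6A siRNA and 2.29 in NC siRNA, gave -0.23 (adjusted p = 0.12), and -0.41 (adjusted p = 0.018) with quantile normalization. Rsad2, or viperin, gave 0.09 (adjusted p = 0.23) as deposited, and 0.43 (adjusted p = 0.00095) after the GC content and exon length correction.

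Among the 5 nuclear and PYHIN proteins, 2 rose, 2 fell and 1 did not pass, beside 37.6% higher and 36.5% lower of all genes tested. Ifi205 measured 0.345, 0.523 and 0.411 FPKM in NC siRNA, 0.596, 0.505 and 0.386 in SFRP2 siRNA, and 3.22, 3.15 and 3.38 in RAB6A siRNA. It was 7.62-fold higher in RAB6A siRNA (log2 fold change 2.68, SE 0.16, adjusted p = 5.6e-06). Ifi205 met the filter of 0.5 FPKM only through the RAB6A siRNA libraries, and 15% of its 100-base windows are shared with Ifi211, so the filter itself favoured this direction and the reads are uncertain. Ifi204, a PYHIN sensor of DNA and the most abundant member of this role, measured 76.6, 76.3 and 63.6 FPKM in NC siRNA, 79.8, 89.4 and 62.5 in SFRP2 siRNA, and 54.3, 55.7 and 53.7 in RAB6A siRNA. Its replicates scattered in NC siRNA and SFRP2 siRNA but lay above those of RAB6A siRNA, and Ifi204 fell by 0.40 (SE 0.08, adjusted p = 0.0028). Sp100, a protein of PML nuclear bodies, gave -0.05 (adjusted p = 0.44), and 0.23 (adjusted p = 0.0089) after correction for GC content and exon length.

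In the remaining group of 8, 2 rose, 4 fell and 2 did not pass, beside 37.6% higher and 36.5% lower of all genes tested. Ifi27l2a, a small mitochondrial and membrane protein, had the highest change of all members. It measured 35.9, 41.0 and 45.1 FPKM in NC siRNA, 31.2, 27.8 and 24.2 in SFRP2 siRNA, and 353, 351 and 229 in RAB6A siRNA. Replicate 3 of RAB6A siRNA, the library with the fewest reads, lay lower than the other two, for Ifi27l2a as for Bst2, yet above every NC siRNA library. The rise was 7.65-fold (log2 fold change 2.91, SE 0.17, adjusted p = 6.2e-06). Lgals3bp, a secreted galectin-3 binding protein, measured 289, 292 and 317 FPKM in NC siRNA, 274, 273 and 288 in SFRP2 siRNA, and 204, 195 and 171 in RAB6A siRNA, a fall of 0.66 (SE 0.08, adjusted p = 0.00021). Ifi44 fell by 1.01 and Tor3a, a torsin ATPase, by 0.89, while Xaf1, an apoptosis factor, rose by 0.45 (adjusted p = 0.001). Epsti1 did not pass (0.11, adjusted p = 0.08) although its groups did not overlap, and gave 0.26 with quantile normalization (adjusted p = 0.0017). Ms4a4c, at 0.552 to 0.664 FPKM in the group means of RAB6A siRNA and NC siRNA, did not pass (-0.27, SE 0.28, adjusted p = 0.42), and gave -0.94 (adjusted p = 0.036) with quantile normalization.

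A set of changes lay close to the threshold and lost the call with a single library left out, at folds mostly near the full value. Oasl2 fell by 0.19 (adjusted p = 0.021), but gave -0.18 without NC siRNA replicate 1 or 2 and -0.14 without RAB6A siRNA replicate 2 (adjusted p 0.065 to 0.072), and its sign turned to 0.11 after correction for GC content and exon length. Pml, the scaffold of nuclear bodies, rose by 0.16 (adjusted p = 0.021), and stayed at 0.16 without any 1 of the NC siRNA libraries or RAB6A siRNA replicate 2, at adjusted p of 0.053 to 0.064. Mx2 rose by 0.23 (adjusted p = 0.019), and gave 0.23 (adjusted p = 0.059) and 0.19 (adjusted p = 0.063) without NC siRNA replicates 2 and 3. Phf11d rose by 0.23 (adjusted p = 0.039), and gave 0.14 (adjusted p = 0.085) without NC siRNA replicate 3 and 0.21 to 0.25 without any 1 RAB6A siRNA library (adjusted p 0.066 to 0.09). Ifi35 measured 13.5, 15.9 and 15.8 FPKM in NC siRNA and 12.5, 11.7 and 8.10 in RAB6A siRNA, a fall of 0.50 (adjusted p = 0.024). It gave -0.46 without NC siRNA replicate 2 or 3 (adjusted p 0.072 and 0.071), and -0.31 with the call kept without RAB6A siRNA replicate 3. Lgals9 fell by 0.26 (adjusted p = 0.027), and gave -0.26 to -0.20 without NC siRNA replicate 2 or 3 or RAB6A siRNA replicate 1 or 2 (adjusted p 0.068 to 0.088). With all libraries kept, other settings ended some of these calls too. Phf11d gave adjusted p of 0.051 to 0.071 with median-of-ratios scaling, without a filter, without a trend, with all 9 libraries in a single fit and with the replicate block. Lgals9 gave 0.053 to 0.12 without a filter, without a trend, with voom on recovered reads and with the GC content and exon length correction. Ifi35 gave 0.053 without a filter and 0.051 with quantile normalization, Oasl2 gave 0.83 with quantile normalization, 0.2 with voom and 0.05 with the replicate block, and Pml gave 0.066 with the block.

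The correction for GC content and exon length also moved the size of further changes by over 1.5 times without ending their calls. It brought Ifit2 to -0.32, Adar to -0.31, Usp18 to -0.34, Dtx3l to -0.38 and Oas3 to -0.12, closer to 0. It took Isg15 to -0.90, Samhd1 to 0.57, Xaf1 to 0.78, Phf11d and Mx2 to 0.55 and Pml to 0.28, farther from 0. Quantile normalization took Lgals3bp to -1.10, and a pseudocount of 1 gave 1.58 for Ifi205, the member at the lowest level.

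**Figure D4:**
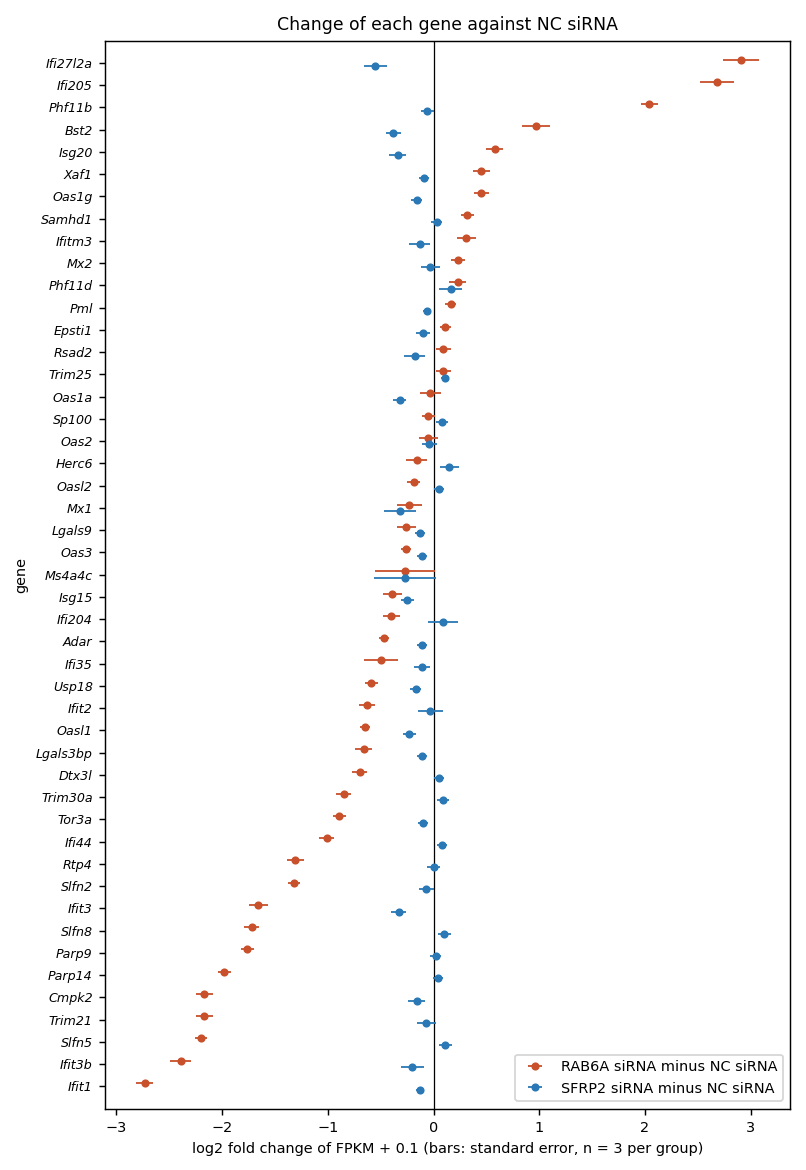
Log2 fold change of FPKM + 0.1 (horizontal axis, bars show the SE, n = 3 per group) of each member (rows) for RAB6A siRNA and SFRP2 siRNA against the same NC siRNA libraries. RAB6A siRNA points run from -2.73 (Ifit1) to 2.91 (Ifi27l2a), whereas SFRP2 siRNA points run from -0.55 to 0.16.

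Neighbouring members did not always share a change. Positions are from GENCODE M21 on GRCm38, whose exon lengths turned the FPKM of 98.4% of named genes into whole reads. The Ifit cluster on chromosome 19 fell throughout, but unevenly along the plus strand, with log2 fold changes of -0.63 for Ifit2 (34550694 to 34576419), -1.66 for Ifit3 (34583531 to 34588731), -2.39 for Ifit3b (34607970 to 34613401) and -2.73 for Ifit1 (34640871 to 34650009). Cmpk2 and Rsad2 are transcribed away from each other on chromosome 12 with 12751 bases between them. Cmpk2 (26469204 to 26479837) fell by 2.17 while Rsad2 (26442746 to 26456452), at 84.4, 79.9 and 75.2 FPKM in NC siRNA and 89.0, 85.8 and 80.8 in RAB6A siRNA, overlapped between groups. Phf11b (59320964 to 59341351) and Phf11d (59347407 to 59365470) lie 6055 bases apart on the minus strand of chromosome 14, with changes of 2.04 and 0.23. On chromosome 16, Parp9 and Dtx3l overlap head to head, with starts 681 bases apart, so that reads there cannot be assigned without strand, and Parp14 lies 54966 bases from Dtx3l. Their log2 fold changes were -1.76, -0.70 and -1.98. The members of the Slfn cluster on chromosome 11 all fell, and in the Oas cluster on chromosome 5 Oas3 fell, Oas1g rose, and Oas2 and Oas1a did not pass.

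**Figure D5:**
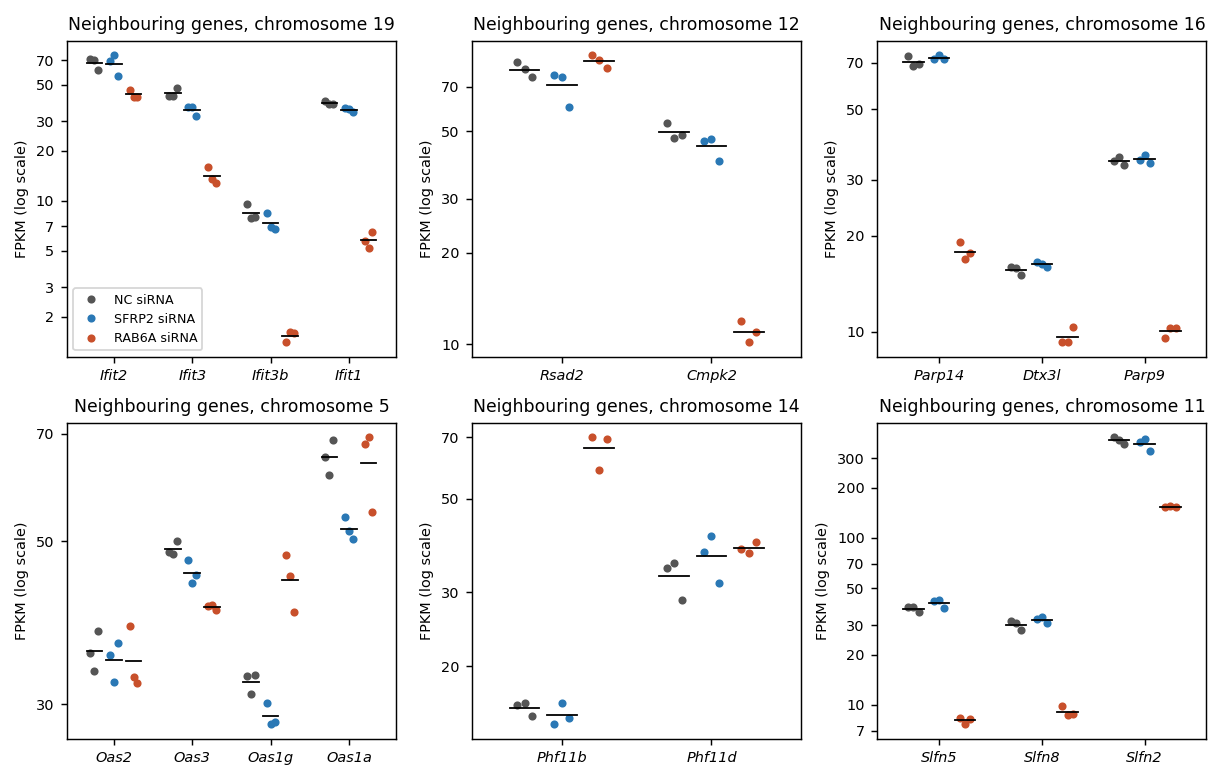
FPKM (log scale) in each library (points, coloured by group) and the group mean (black bar) for members that lie next to each other on 6 chromosomes, ordered by position. Rsad2 overlaps between NC siRNA and RAB6A siRNA beside Cmpk2, Phf11b stands above its other groups beside Phf11d, and the 4 Ifit genes and 3 Slfn genes are lower with RAB6A siRNA.

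SFRP2 siRNA against NC siRNA gave smaller differences. Ifi205 did not meet the filter in this comparison (means of 0.426 FPKM in NC siRNA and 0.496 in SFRP2 siRNA), and none of the other 46 members passed the test in either direction, beside 0% of the 12017 genes tested; the lowest adjusted p of a member was 0.16. At an unadjusted p under 0.05, 11 members had lower estimates and 1 a higher one, beside 10.7% and 7.73% of all genes tested. Of the 46, 32 had estimates below 0 and 14 above, with a median log2 fold change of -0.10 beside -0.01 over all genes tested. The SFRP2 siRNA libraries lay wholly below NC siRNA for 16 members and wholly above for 2, beside 13.9% and 10.9% of all genes tested. The comparison shares its NC siRNA libraries with the one above, so the directions of both are not independent.

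The 3 members with the smallest p among the lower estimates were Oas1a, Bst2 and Ifi27l2a. Oas1a measured 54.0, 51.7 and 50.3 FPKM in SFRP2 siRNA against 65.1, 61.6 and 68.8 in NC siRNA, without overlap (log2 fold change -0.32, SE 0.06, adjusted p = 0.16). Bst2 gave -0.38 (SE 0.07, adjusted p = 0.16) and Ifi27l2a -0.55 (SE 0.11, adjusted p = 0.17), from the library values given above. The groups did not overlap for either gene. With voom on the recovered reads, Oas1a (adjusted p = 0.045) and Bst2 (adjusted p = 0.041) passed the test and were lower. Among higher estimates the smallest p belonged to Trim25, Slfn5 and Herc6. Trim25 measured 92.2, 92.6 and 95.2 FPKM in SFRP2 siRNA against 87.9, 84.2 and 87.6 in NC siRNA (0.11, SE 0.04, adjusted p = 0.24). Slfn5 gave 0.11 (SE 0.06, adjusted p = 0.35), and Herc6, at 4.78, 4.50 and 4.11 FPKM against 4.37, 3.97 and 3.70, gave 0.15 (SE 0.09, adjusted p = 0.39) with overlapping groups. Other members with unadjusted p under 0.05 were Ifit3 (-0.33), Isg20 (-0.34), Isg15 (-0.25), Oasl1 (-0.23), Usp18 (-0.17), Oas1g (-0.16), Ifit1 (-0.13) and Lgals9 (-0.13), with adjusted p between 0.17 and 0.23.

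The difference between both siRNAs was tested directly as RAB6A siRNA against SFRP2 siRNA. Here 14 members were higher in RAB6A siRNA, 24 were lower and 9 did not pass, beside 73.4% of the 12764 genes tested (37.6% higher, 35.8% lower), with a median of -0.24 over the members. With an absolute log2 fold change over 1 as well, 4 were higher and 12 lower, beside 17.8% and 13.3% of all genes tested. Ifi205, counted among the 14 and the 4, met the filter only through the RAB6A siRNA libraries here too (mean of 0.496 FPKM in SFRP2 siRNA). The highest and lowest were again Ifi27l2a (3.46, SE 0.18, adjusted p = 5.9e-06) and Ifit1 (-2.60, SE 0.08, adjusted p = 1.8e-06). This comparison and the one against NC siRNA share the RAB6A siRNA libraries, so the recurrence is not independent. Bst2 (1.35, adjusted p = 1e-04) and Oas1a (0.29, adjusted p = 0.027) were higher in RAB6A siRNA than in SFRP2 siRNA, although without SFRP2 siRNA replicate 2 or 3, or RAB6A siRNA replicate 1 or 2, Oas1a gave adjusted p between 0.069 and 0.089. Isg15 did not pass (-0.14, SE 0.09, adjusted p = 0.21), or gave -0.23 (adjusted p = 0.041) without RAB6A siRNA replicate 1, -0.43 (adjusted p = 0.0029) with quantile normalization and -0.70 (adjusted p = 0.00024) after correction for GC content and exon length. Rsad2 was higher (0.27, adjusted p = 0.043), but not without SFRP2 siRNA replicate 3 or RAB6A siRNA replicate 1 or 2 (adjusted p 0.072 to 0.12). The correction for GC content and exon length brought Bst2 to 0.68 and Rsad2 to 0.69 in this comparison, with both calls kept.

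Of 19 listed genes that make, sense or transmit type I interferon, 6 rose with RAB6A siRNA, 8 fell, 4 did not pass and Ifna4 was too low to test, beside 37.6% higher and 36.5% lower of all genes tested. Ifnb1, the interferon-β gene, was near the floor at 0.443 ± 0.225 FPKM (SD, n = 3) in NC siRNA and 0.947 ± 0.390 in RAB6A siRNA, and did not pass (log2 fold change 0.97, SE 0.44, adjusted p = 0.079). It met the filter only through the RAB6A siRNA libraries, so the filter itself favoured this direction. Both receptor chains rose, Ifnar1 by 0.89 and Ifnar2 by 0.35, as did the kinase Tyk2 (0.62), whereas Jak1 fell by 0.18 (adjusted p = 0.043). Of the transcription factors, Irf9 fell by 0.67, from 11.8 ± 0.462 to 7.39 ± 0.321 FPKM, while Stat2 (0.12, adjusted p = 0.15) and Irf3 (-0.13, adjusted p = 0.16) did not pass. Irf7, the factor that amplifies interferon transcription and is itself an interferon-stimulated gene, rose from 139 ± 5.37 to 229 ± 27.1 FPKM (0.71, SE 0.09, adjusted p = 0.00027). Irf1, which binds similar elements, fell by 1.09 and the feedback inhibitor Socs3 by 0.99, whereas Socs1, another such inhibitor, did not pass (-0.20, adjusted p = 0.2). The LPS receptor Tlr4 fell by 0.50, its adaptors Ticam1 by 0.55 and Ticam2 by 1.02, and Traf3 by 0.94, while the kinases Tbk1 and Ikbke rose by 0.32 and 0.43. With SFRP2 siRNA, limma called none of the 17 signalling genes tested. At an unadjusted p under 0.05, 3 had lower and 0 higher estimates, beside 10.7% and 7.73% of all genes tested.

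Of 43 further interferon-stimulated genes and paralogues outside the 47, 37 were tested with RAB6A siRNA. Of these 10 rose, 16 fell and 11 did not pass, beside the same 37.6% higher and 36.5% lower of all genes tested, with a median log2 fold change of -0.19. Slfn9 fell by 3.09, from 21.7 ± 1.77 to 2.49 ± 0.483 FPKM (SD, n = 3), and Ifit1bl2, from the Ifit cluster, by 2.57. Ifi44l (-1.96), Parp12 (-1.66), the helicase Znfx1 (-1.46) and the kinase Eif2ak2 (-1.45), which halts translation on double-stranded RNA, fell as well. Phf11a rose by 2.44, from 0.626 ± 0.182 to 3.78 ± 0.485 FPKM, and Ifitm1 (1.90), Sp140 (1.34), the PYHIN gene Mndal (1.20) and Ifitm2 (1.01) rose too. Slfn4 rose by 0.58, unlike the 3 Slfn members above. With SFRP2 siRNA, limma called 0 of the 37. At an unadjusted p under 0.05, 7 were lower and 1 higher, beside 10.7% and 7.73% of all genes tested.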

How the data were processed

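RNA from 9 RAW264.7 libraries (3 NC siRNA, 3 SFRP2 siRNA, 3 RAB6A siRNA) was sequenced as paired-end mRNA libraries by the authors, who deposited 1 table of FPKM values for 28137 genes. The submitters' processing notes name HISAT2, featureCounts and Subread; the genome build, the annotation and the strand setting are not given in the sources used here. Identifiers were matched to GENCODE M21, which named 27533 genes. Multiplying FPKM by exon length gave whole reads (within 0.03) in all libraries for 27083 genes (98.4%); these reads served only for depth and for an alternative fit by voom. Step totals per library were 32758730 to 47149257.

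Groups followed the treatment labels. Each of the 3 comparisons was fitted with limma 3.58.1 (R 4.3.3, eBayes with a trend) on log2(FPKM + 0.1), using only its 6 libraries, with no block, a filter at a mean of 0.5 FPKM and Benjamini-Hochberg adjustment over all genes tested. Fold changes on this scale understate the change of low genes. Fits were tested on simulated data. Replicate libraries differed by more than sampling noise, so each was counted once. Library values are given for the most abundant member of each role in NC siRNA, the 6 highest and 6 lowest changes with RAB6A siRNA, and the 3 smallest p in each direction with SFRP2 siRNA; Ifi35, Rsad2 and the genes named for a lost call were added after their values were seen. The members and gene lists were chosen with earlier results of these data known. A gene of the signalling list is not reported here. Promoters were RefSeq's for GRCm38.p6. Figures were drawn with matplotlib 3.10.9.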

Additional observations from a re-analysis of the deposited data

How the results depend on the processing

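The alternatives were other pseudocounts, filters and scalings, eBayes without a trend, all 9 libraries in a single fit, the replicate number as a block, a correction for GC content and exon length alone and with the block, voom on recovered reads (which left out Isg15, whose values were not whole reads) and each library left out in turn. Single genes were followed only among the 47 members. The calls of signalling genes and further interferon-stimulated genes were not checked this way. For RAB6A siRNA against NC siRNA, 32 of 47 members kept their direction and their side of the threshold in every alternative run (22 of the 26 that fell, 8 of the 12 that rose and 2 of the 9 not called), as did 44 of 46 for SFRP2 siRNA against NC siRNA and 30 of 47 for RAB6A siRNA against SFRP2 siRNA. Requiring an absolute log2 fold change over 1 lowered RAB6A siRNA against NC siRNA to 3829 genes, with 3 members higher and 12 lower, and RAB6A siRNA against SFRP2 siRNA to 3972 genes, with 4 and 12. For SFRP2 siRNA against NC siRNA, limma called 0 genes (2220 at an unadjusted p under 0.05), while voom on recovered reads called 43, with 2 members lower (Oas1a and Bst2).

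Signs turned as follows, and the cause was not tested. Against NC siRNA, Ifitm3 turned to -0.10 with quantile normalization and to -0.21 with the GC content and exon length correction, with and without the replicate block, and under that correction, again with and without the block, Oas2 turned to 0.27, Oasl2 to 0.11 and Sp100 to 0.23. Against SFRP2 siRNA, Ifitm3 turned to -0.09 with quantile normalization and, under the correction with and without the block, to -0.12, Oas2 to 0.26, Oasl2 to 0.07, Trim25 to 0.25 and Sp100 to 0.23. For RAB6A siRNA against NC siRNA, the median over all genes tested moved from 0.03 to 0.11 with voom and to 0.09 with the correction. Under the correction 16 members rose and 25 fell, beside 5215 and 4225 of the 12535 genes tested. Of all calls, 55.2% were then higher, against 50.7% as reported.

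Leaving out 1 library gave 8807 to 9267 genes, 9 to 11 members higher and 23 to 26 lower for RAB6A siRNA against NC siRNA. It gave 8629 to 9083 genes, 11 to 14 members higher and 21 to 25 lower for RAB6A siRNA against SFRP2 siRNA, and 0 to 1 genes for SFRP2 siRNA against NC siRNA (1 without NC siRNA replicate 1), with 0 members. For RAB6A siRNA against SFRP2 siRNA it also ended the calls of Oas3, Oasl2, Herc6 and Epsti1 (adjusted p 0.053 to 0.11) and gave Ifi35 (0.03, without RAB6A siRNA replicate 1) and Lgals9 (0.009, without RAB6A siRNA replicate 3) an adjusted p under the threshold. Same-numbered replicates did not deviate together (correlations -0.0847 to 0.0477), which does not settle whether the numbers pair the libraries. With the replicate number as a block, 9103 genes, 10 members higher and 25 lower were called for RAB6A siRNA against NC siRNA, 0 genes for SFRP2 siRNA against NC siRNA (2988 at an unadjusted p under 0.05), and 9159 genes, 14 members higher and 24 lower for RAB6A siRNA against SFRP2 siRNA. For SFRP2 siRNA against NC siRNA, limma with the block gave 5 members higher and 18 lower at an unadjusted p under 0.05. Without the block these were 1 and 11. The smallest adjusted p of any gene was 0.053 with the block and 0.14 without it. Depth limits Ms4a4c (21 to 57 reads per library) and Ifi205 (56 reads in its lowest library).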
